A study of Mus musculus with 24 samples.

Results

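The genes followed here in the injured mouse brain are known for their induction in axotomized neurons: Atf3, Jun, Sox11, Sprr1a, Gal, Ecel1, Gap43 and Stmn4. They were chosen by symbol, and all 8 of 8 were found among the 36333 genes of the expression table. Each of the 8 also passed the filter on low values that left 17267 genes for testing (0.5 TPM or more on average), where TPM is transcript abundance scaled so that each library sums to 1000000. At 5 days after traumatic brain injury (TBI), 6 of the 8 were higher than in sham mice, as were 26.6% of all genes tested, whereas Gap43 and Stmn4 were not. With combined PLX3397+Anakinra, 3 of them, Atf3, Sprr1a and Gal, were lower than with vehicle, as were 9.6% of all genes tested. The Atf3 call held whichever mouse was left out, whereas those of Sprr1a and Gal were lost without certain single mice. Neither drug alone moved any member past the test, which 9.89% of all genes passed with PLX3397 and 0.116% with Anakinra. Averaged over mice with and without Anakinra, PLX3397 changed 2 of 8, Atf3 lower and Stmn4 higher, against 21.3% of all genes. For no member and no gene tested did the combination pass as a departure from the sum of the single-drug log2 differences.

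When an axon is cut, the neuron switches on a regeneration program. Stress kinases of the JNK family, downstream of the sensor kinase DLK, activate the transcription factor JUN, which pairs with ATF3 and other partners on AP-1 and CRE sites. SOX11 takes part in the same program, and growth cone proteins, neuropeptides and injury-specific proteins such as SPRR1A follow. The program is strong in peripheral sensory and motor neurons and weak in most cortical neurons. Several of its genes, ATF3 and JUN among them, are also stress genes of glia and immune cells.

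RNA was sequenced from 24 male mice, labelled C57BL6N and aged 12 to 16 weeks, with 1 library per mouse. The methods of the study instead name C57BL/6JRj mice and a narrower span of ages, and the labels are followed here. The whole study used both sexes, and its RNA sequencing was done on males. TBI was a controlled cortical impact through a craniotomy over the right parietal cortex. The injured mice were given vehicle, PLX3397, Anakinra or the combination PLX3397+Anakinra (n = 5 each). All were examined 5 days after the operation, and 4 sham mice had a skin incision without craniotomy, so that impact and craniotomy cannot be told apart here. PLX3397, an inhibitor of the receptor CSF1R on which microglia depend, was given in chow at 290 mg/kg. Anakinra, an antagonist of the interleukin-1 receptor IL1R1, was injected subcutaneously at 100 mg/kg. Vehicle and sham mice received the chow and injections without drug. The labels call the tissue cortex, whereas the methods describe lesioned and surrounding tissue with cortex, striatum, dorsal hippocampus and thalamus. Markers of mature neurons were abundant in every group, and the striatal gene Ppp1r1b reached group means of 651 to 772 TPM. In bulk RNA, fewer cells of a type and less RNA per cell cannot be told apart.

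Between 22160 and 23249 genes per library were above 0, and the 10 highest genes held 4.03% to 5.36% of the total. The depth is unknown, since neither counts nor library totals were used here. Animal numbers ending in the letter B occur in the vehicle group and in no other. What the letter stands for is not given in the sources used here, and if it marks a batch, that batch and the vehicle group cannot be told apart.

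The stretch before the gene start is shown for 3 members because the transcription factors among the members bind sites of the kinds searched there. RefSeq promoter windows (GRCm38.p6, 300 bases each) were found for 6 of the 8 members, all but Gap43 and Stmn4. They were searched on both strands for AP-1 (TGACTCA, or TGAGTCA on the other strand), CRE (TGACGTCA, the same on both strands) and STAT (TTCNNNGAA). Sprr1a held 2 AP-1 matches, at -146 and -116 from its start, and the other 5 windows held none. AP-1 letters occur in 5.20% of all 32851 windows, CRE in 1.79% and STAT in 8.30%, and no member held the last pair. A search for CRE with at most 1 base changed was added after the windows had been read. It matched in Atf3 at -10, in Sprr1a at -207, in Jun at -45 and in Sox11 at -42, that is in 4 of 6 windows, against 12.5% of all windows. Such matches describe the letters and are not evidence of binding. Positions count back from the annotated start, with -1 the last base shown. The 250 bases before each start are printed 5′ to 3′ on the minus strand, with AP-1 and near-CRE matches in capitals. The Sprr1a stretch lies at chr3:92485882-92486131, that of Jun at chr4:95052223-95052472 and that of Atf3 at chr1:191183334-191183583. The last is inside the longer Atf3 gene of GENCODE M21.
Sprr1a: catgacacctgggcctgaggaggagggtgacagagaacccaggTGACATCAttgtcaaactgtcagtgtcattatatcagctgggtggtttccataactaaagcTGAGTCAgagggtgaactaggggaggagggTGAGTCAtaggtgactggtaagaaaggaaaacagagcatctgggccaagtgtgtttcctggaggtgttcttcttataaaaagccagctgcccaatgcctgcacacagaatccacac
Jun: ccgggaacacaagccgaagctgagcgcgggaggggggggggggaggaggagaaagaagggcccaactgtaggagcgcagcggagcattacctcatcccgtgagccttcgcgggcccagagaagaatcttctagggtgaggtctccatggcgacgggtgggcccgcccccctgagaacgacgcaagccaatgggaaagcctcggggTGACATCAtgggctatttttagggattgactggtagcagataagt
Atf3: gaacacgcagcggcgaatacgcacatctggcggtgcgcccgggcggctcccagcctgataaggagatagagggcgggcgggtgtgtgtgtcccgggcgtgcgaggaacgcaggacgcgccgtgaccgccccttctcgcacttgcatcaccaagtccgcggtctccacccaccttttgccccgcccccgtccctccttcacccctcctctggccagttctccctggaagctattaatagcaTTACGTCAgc

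Across all 5 groups, 7 of the 8 members differed by limma's F-test at an adjusted p below 0.05, against 51.9% of all genes tested. The exception was Gap43 (adjusted p = 0.0505). Between vehicle and sham, 7 members passed the test, 6 of them higher, where 54.3% of all genes passed and 26.6% passed as higher. The groups of mice did not overlap for 6 members, the same 6 that were higher, against 42.7% of all genes. The median log2 difference was 0.98 over the members and -0.01 over all genes tested. By the size of the log2 difference, Atf3 had rank 32 and Sprr1a rank 42 of 17267 genes counted from the highest, while Sox11 had rank 2741.

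**Figure D1:**
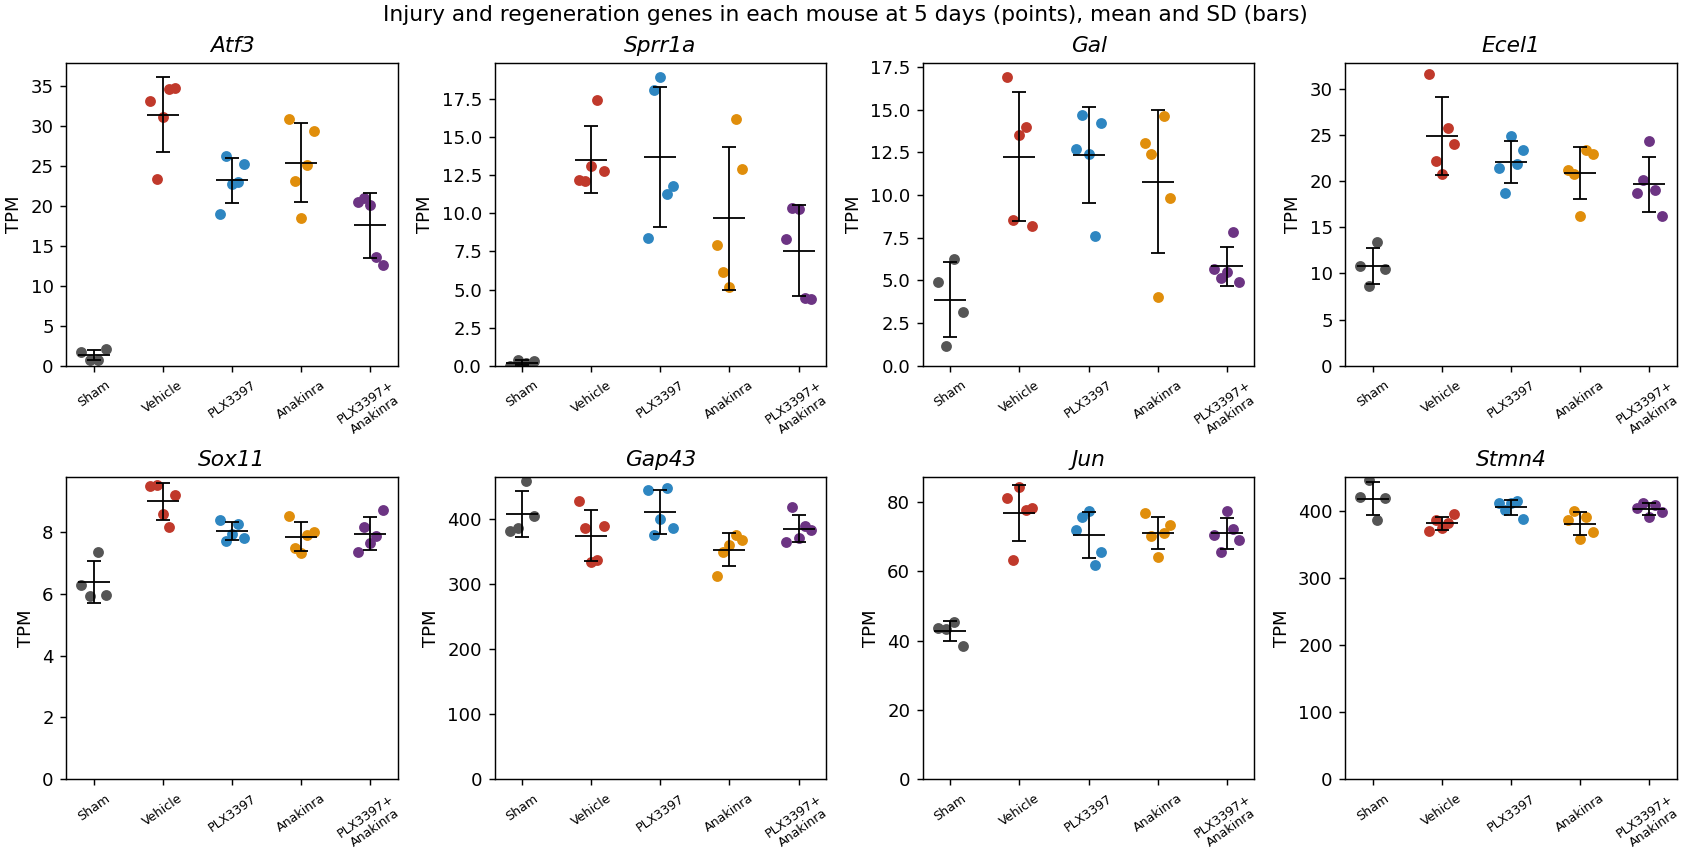
TPM of the 8 members (vertical axes, from 0) in each mouse (points) of the 5 groups (horizontal axes), with the mean and SD as bars (n = 5 mice with TBI per group, n = 4 sham). Atf3 and Sprr1a were near the floor in sham mice, and Gap43 and Stmn4 stayed at a similar height in every group.

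Atf3 (chr1:191170296-191218039, minus strand, GRCm38) encodes a transcription factor that is nearly silent in intact neurons and a standard marker of axon injury. In sham mice it was at 1.65, 0.755, 0.760 and 2.06 TPM. Vehicle mice had 33.1, 23.4, 31.1, 34.7 and 34.7 TPM. The means were 1.31 ± 0.66 TPM (SD, n = 4) and 31.4 ± 4.71 TPM (SD, n = 5), a ratio of 24.0, with a difference of 3.84 (SE 0.18) on the log2(TPM + 1) scale and an adjusted p of 5.05e-15. Every injured mouse, treated or not, lay far above every sham mouse.

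With PLX3397+Anakinra, Atf3 was at 20.4, 21, 20.1, 13.7 and 12.6 TPM, below all 5 vehicle mice. The mean of 17.6 ± 4.07 TPM (SD, n = 5) was 0.56 times that of vehicle, a log2 difference of -0.82 (SE 0.17, adjusted p = 0.00097). PLX3397 mice had 18.9, 26.3, 22.7, 23.0 and 25.2 TPM, and Anakinra mice 30.9, 23.1, 18.5, 25.2 and 29.4 TPM. Both single-drug groups overlapped with vehicle, with log2 differences of -0.41 (95% interval -0.76 to -0.07, adjusted p = 0.125) and -0.30 (-0.65 to 0.04, adjusted p = 0.467). The order of mean levels was vehicle, Anakinra, PLX3397, PLX3397+Anakinra and sham, and of the neighbours in that order PLX3397+Anakinra and sham differed beyond their spread, whereas the other 3 pairs did not.

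Jun (chr4:95049034-95052222, minus strand), the AP-1 subunit that drives much of the axotomy response, rose less and from a higher base. Sham mice had 43.6, 43.3, 45.3 and 38.5 TPM, and vehicle mice 81.0, 63.2, 84.3, 77.6 and 78.3 TPM. The difference was 0.83 (SE 0.08, adjusted p = 1.14e-09) on the log2 scale, a ratio of means of 1.80. The drug groups hardly departed from one another, at 70.4 ± 6.59 TPM with PLX3397, 71.1 ± 4.64 TPM with Anakinra and 70.9 ± 4.40 TPM where both were given (SD, n = 5 each). Their log2 differences from vehicle were -0.12, -0.11 and -0.11, and the intervals reached from -0.27 to 0.04. None passed the test, with adjusted p of 0.320, 0.553 and 0.315.

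Sox11 (chr12:27334264-27342574, minus strand), a transcription factor of developing and regenerating neurons, showed a small rise with little spread. Sham mice were at 6.27, 5.91, 7.36 and 5.96 TPM, and vehicle mice at 9.50, 9.51, 8.58, 8.14 and 9.20 TPM. The groups did not overlap, and the log2 difference was 0.44 (SE 0.07, adjusted p = 5.04e-06). Drug group means were 8.02 ± 0.29 TPM with PLX3397, 7.84 ± 0.47 TPM with Anakinra and 7.94 ± 0.53 TPM with both (SD, n = 5 each), each still above sham by the test. Their log2 differences from vehicle were -0.15, -0.17 and -0.16, none past the adjusted threshold (adjusted p = 0.161, 0.239 and 0.0849).

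Gal (chr19:3409915-3414544, minus strand) encodes the neuropeptide galanin, which injured sensory and noradrenergic neurons make in large amounts. It varied widely between mice, with 4.88, 1.17, 6.27 and 3.15 TPM in sham and 16.9, 8.52, 13.5, 13.99 and 8.18 TPM in vehicle mice. The log2 difference was 1.53 (SE 0.31, adjusted p = 0.000155). PLX3397 mice stayed at the vehicle level, at 12.7, 14.7, 12.4, 7.59 and 14.2 TPM. Anakinra mice had 13.04, 12.4, 4.02, 14.7 and 9.85 TPM, with 1 mouse in the range of sham. Mice given both drugs had 5.66, 5.13, 5.51, 7.84 and 4.92 TPM, all below the lowest vehicle mouse.

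The combination mean for Gal, 5.81 ± 1.17 TPM (SD, n = 5), was 0.48 times that of vehicle, a log2 difference of -0.92 (SE 0.29, adjusted p = 0.0275). Of the 6 members that rose in vehicle mice, Gal was the one that did not pass against sham with both drugs: the difference of 0.61 had a 95% interval of -0.02 to 1.24 and an adjusted p of 0.122. That interval does not show the level to be that of sham. Against PLX3397 the combination differed by -0.95 (95% interval -1.55 to -0.36), a rank of 17245 of 17267 from the highest, with an adjusted p of 0.297. The call against vehicle was lost (adjusted p up to 0.0685) when any 1 of 3 vehicle mice (J01B, J18B, J19B) or 3 combination mice (J04, J09, J17) was left out, and without the filter on low values (adjusted p = 0.0563).

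Ecel1 (chr1:87147655-87156521, minus strand) encodes a membrane protein of the neprilysin family that nerve injury induces, also known as DINE. Levels were 10.8, 8.61, 13.4 and 10.5 TPM in sham mice and 31.7, 22.2, 20.8, 25.8 and 24.0 TPM in vehicle mice. The groups were separate, with a log2 difference of 1.13 (SE 0.13, adjusted p = 3.72e-08). Means fell in the order vehicle (24.9), PLX3397 (22.1), Anakinra (20.9) and PLX3397+Anakinra (19.7 TPM), and no neighbours in that order differed by the test. Even the lowest of these, PLX3397+Anakinra against vehicle, missed the threshold (log2 difference -0.32, SE 0.12, adjusted p = 0.0638).

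Sprr1a (chr3:92483952-92485895, minus strand) encodes a small proline-rich protein of the skin barrier that injured neurons also make. It was listed at 0, 0.344, 0.159 and 0.279 TPM in sham mice and at 12.2, 12.2, 13.1, 17.4 and 12.8 TPM in vehicle mice. The log2 difference was 3.60 (SE 0.27, adjusted p = 4.76e-11). Among relatives and other epidermal genes, Sprr1b, Sprr2d and Sprr3 were listed at 0 in every group, Krt5 and Krt14 had group means of at most 0.0823 TPM, and of the 5 genes of this list that could be tested none was higher in vehicle than in sham mice. In that list Sfn was higher than sham with Anakinra (0.33, adjusted p = 0.0399) and with PLX3397+Anakinra (0.41, adjusted p = 0.018).

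With PLX3397 alone, Sprr1a ranged from 8.40 to 18.9 TPM with a median of 11.8, and the log2 difference from vehicle was -0.03 (95% interval -0.56 to 0.50). Anakinra mice fell into a wide range, at 7.91, 6.17, 5.14, 16.2 and 12.9 TPM. PLX3397+Anakinra mice were at 8.29, 10.4, 10.3, 4.46 and 4.36 TPM, below every vehicle mouse. The mean of 7.55 ± 2.99 TPM (SD, n = 5) was 0.56 times that of vehicle, a log2 difference of -0.83 (SE 0.26, adjusted p = 0.0262). This call was lost with a pseudocount of 0.1 (adjusted p = 0.0769), without the filter (adjusted p = 0.054) and without vehicle mouse J19B or combination mouse J10 or J17 (adjusted p = 0.0773 to 0.0854).

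Gap43 and Stmn4 are abundant neuronal genes in the intact brain, and neither rose. Gap43 (chr16:42248442-42340651, minus strand), the growth-associated protein of growth cones and presynaptic terminals, was at 382, 387, 458 and 405 TPM in sham mice. Vehicle mice had 427, 386, 334, 337 and 389 TPM, overlapping with sham (log2 difference -0.13, 95% interval -0.28 to 0.02, adjusted p = 0.151). Its lowest mean, 353 ± 25.0 TPM (SD, n = 5) with Anakinra, was below sham by -0.21 (SE 0.07, adjusted p = 0.0189), a call lost without Anakinra mouse J05 (adjusted p = 0.0661) or sham mouse J15 (adjusted p = 0.101).

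Stmn4 (chr14:66344296-66361680, plus strand), a stathmin that binds tubulin, had the least spread of all members. Sham mice were at 421, 447, 387 and 419 TPM, and vehicle mice at 370, 387, 376, 383 and 395 TPM. The log2 difference was -0.13 (SE 0.04, adjusted p = 0.00878), with 1 sham mouse inside the vehicle range. This small fall was lost when libraries were rescaled by their median ratio (adjusted p = 0.0529) or without sham mouse J08 (adjusted p = 0.0571). Anakinra mice were lower than sham as well, by -0.13 (adjusted p = 0.00662, and 0.0881 after rescaling). PLX3397 and PLX3397+Anakinra mice had means of 406 and 404 TPM, between vehicle and sham.

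**Figure D2:**
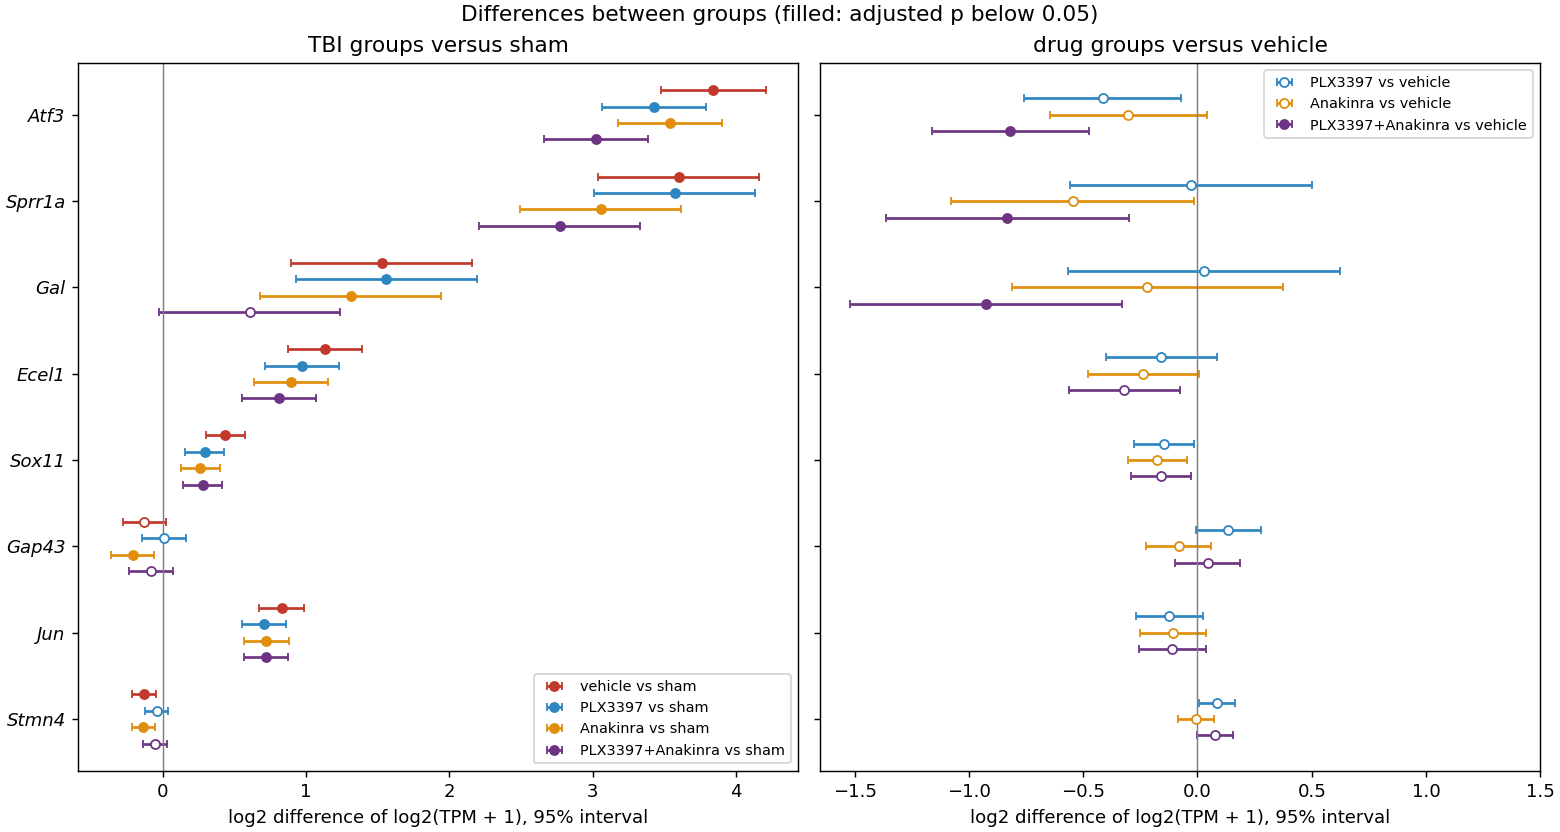
Log2 differences of log2(TPM + 1) with 95% intervals (horizontal axes) for each member (vertical axis), TBI groups minus sham at left and drug groups minus vehicle at right; filled points passed an adjusted p of 0.05. The 3 filled points at right are Atf3, Sprr1a and Gal with PLX3397+Anakinra, at -0.82, -0.83 and -0.92.

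Set against sham, 6 members passed with PLX3397 (all higher, background 45.2%), 8 with Anakinra (6 higher and 2 lower, background 54.4%) and 5 with PLX3397+Anakinra (all higher, background 38.8%). All of these comparisons share the 4 sham mice. Expressed as the part of the vehicle minus sham difference that was still present, PLX3397 mice kept 72.8% for Atf3, 101.3% for Sprr1a and 101.1% for Gal. Anakinra mice kept 80.1%, 71.1% and 82.8%. With both drugs 54.0%, 55.2% and 23.3% were left. For Ecel1 the parts were 79.9%, 71.7% and 63.1% in the same order of groups, for Sox11 62.9%, 56.2% and 59.9%, and for Jun 81.2%, 83.1% and 82.6%. Jun and Sox11 kept similar parts under all treatments, while Atf3, Sprr1a, Gal and Ecel1 were lowest with the combination. These parts are descriptions of means and were not tested.

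**Figure D3:**
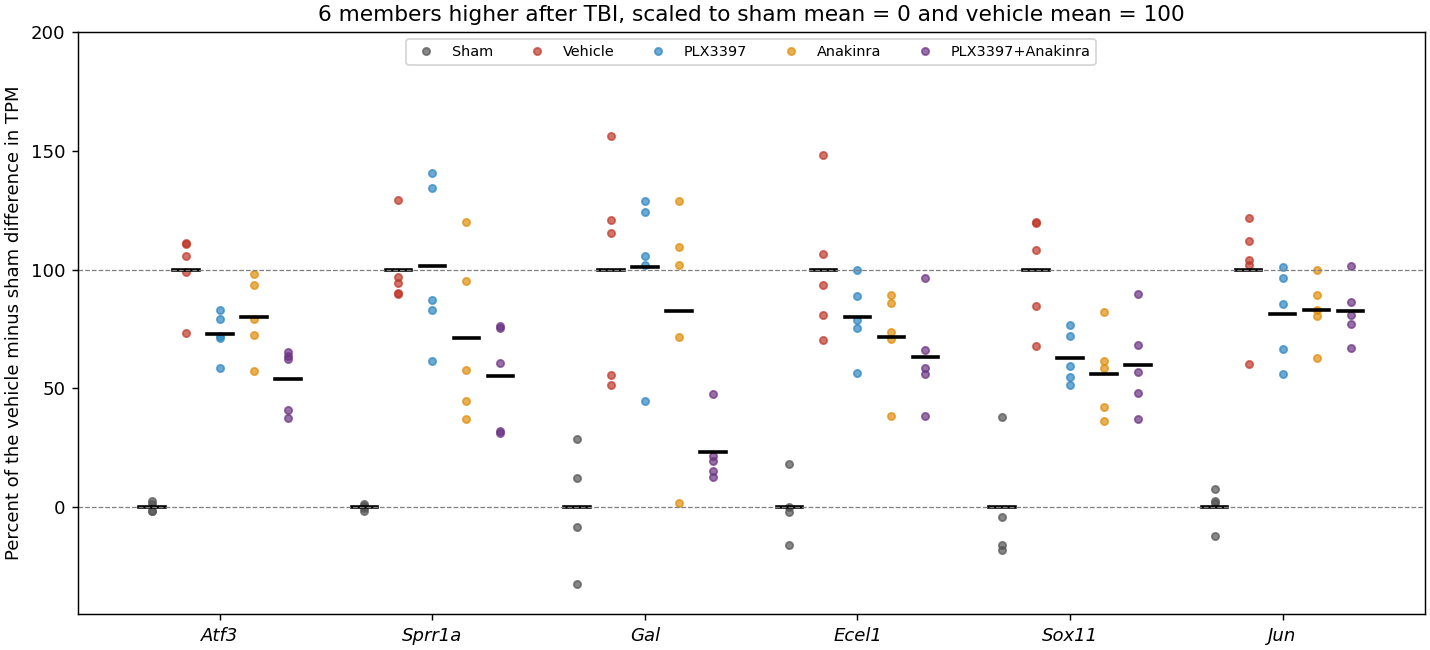
TPM of the 6 members that were higher after TBI, as a percentage of the vehicle minus sham difference (vertical axis; sham mean 0, vehicle mean 100), for each mouse (points) and group mean (bars). The Gal mean with PLX3397+Anakinra was at 23.3%, and the 3 drug groups of Jun were at 81.2% to 83.1%.

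Of the comparisons with vehicle, PLX3397+Anakinra changed 3 of 8 members, all lower, where 17.5% of all genes passed and 9.6% passed as lower. The same 3 members did not overlap between the groups, against 10.7% of all genes. PLX3397 alone changed 0 of 8, against a background of 9.89% (6.66% lower); in limma, 3 members, Atf3, Sox11 and Stmn4, had an unadjusted p below 0.05 (22.8% of all genes), as they did in an exact permutation test (18.2% of all genes). Anakinra alone changed 0 of 8, against a background of 0.116%, with 2 members under an unadjusted 0.05 in limma (12.4% of all genes) and 1 in the exact permutation test (11.3%). All 8 members had a mean log2 difference below 0 with Anakinra, the largest being -0.54 for Sprr1a (95% interval -1.08 to -0.01, adjusted p = 0.388).

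When the drug groups were compared with each other, PLX3397+Anakinra against PLX3397 changed 0 of 8 members (background 0.151%), although 3 had an unadjusted p below 0.05 both in limma and in the exact permutation test, namely Atf3, Sprr1a and Gal, against 6.71% and 5.32% of all genes. Against Anakinra, the combination changed 1 of 8 (background 12.8%), Atf3, with a log2 difference of -0.52 (SE 0.17, adjusted p = 0.0413) and overlapping mice. This call was lost without Anakinra mouse J05, J06, J21 or J22 or combination mouse J10 or J17 (adjusted p = 0.0518 to 0.139), without the filter (0.0792) and with a pseudocount of 0.1 (0.0969). PLX3397 against Anakinra changed 0 of 8 (background 6.69%), with Gap43 nearest, at 0.22 (adjusted p = 0.0585); 2 members had an unadjusted p below 0.05 in limma (20.1% of all genes) and in the exact permutation test (17.9%). The exact permutation test counted 6 members for the combination against vehicle, where 24.7% of all genes passed it, and 3 for the combination against Anakinra, where 25.8% did.

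The design holds both drugs in every pairing, so effects were also averaged over the other drug. PLX3397 changed 2 of 8 members (background 21.3%): Atf3 was lower by -0.47 (SE 0.12, adjusted p = 0.00545) and Stmn4 higher by 0.09 (SE 0.03, adjusted p = 0.0239, and 0.133 after rescaling). Anakinra changed 0 of 8 (background 0.261%), with 5 members under an unadjusted 0.05 in limma (10.9% of all genes). Sprr1a stood at -0.67 (95% interval -1.05 to -0.30, adjusted p = 0.124) and was among the lowest 20 of all genes by that difference (rank 17248 of 17267). The interaction asks whether the combination departs from the sum of the single-drug differences on the log2(TPM + 1) scale. It passed for 0 of 8 members and for 0 of 17267 genes (0.0%) in limma. No member had an unadjusted p below 0.05 for it, while 1395 genes (8.08%) had. For Gal the interaction was -0.73 with a 95% interval of -1.58 to 0.11, for Atf3 -0.10 (-0.59 to 0.38) and for Sprr1a -0.26 (-1.01 to 0.49). The low Gal level with both drugs is therefore not shown to be more than the sum of the single-drug differences on that log2 scale.

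The JNK and DLK list did not rise at the RNA level. Of 11 genes of the JNK and DLK pathway, 10 were lower in vehicle than in sham and none was higher. Their median log2 difference was -0.35, beside -0.67 for 12 mature neuron markers, and 54.3% of all genes passed in either direction. They included the neuronal kinase Mapk10 (JNK3, -0.60), Mapk9 (JNK2, -0.52) and Map3k12, which encodes DLK (-0.49, from 69.5 to 49.3 TPM). These kinases act through phosphorylation, which RNA does not show. The list also holds phosphatases: Dusp10 was counted among the lower genes (-0.23, adjusted p = 0.0173), and Dusp1 did not pass (0.21, adjusted p = 0.106). With PLX3397+Anakinra 3 of the 11 were higher than in vehicle, as were 9 of 12 mature neuron markers. Mapk10 was among the 3, by 0.22 (adjusted p = 0.00101).

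Among 12 tested relatives of Jun and Atf3 in the AP-1 and ATF families, 6 were higher and 4 lower after TBI (median 0.03). For comparison, 26.6% of all genes passed as higher and 54.3% in either direction. Batf, a partner of JUN best known from immune cells, rose by 1.44 and Maff by 0.82, Junb by 0.42 and Fos by 0.37, whereas Fosb and Jdp2 each fell by 0.62. Batf also fell with the combination (-0.88 against vehicle, adjusted p = 0.0014), 1 of 3 relatives that were lower there. In the same comparison 1 relative, Jdp2, was higher (0.27, adjusted p = 0.0183), and 9.6% of all genes passed as lower. Of the SoxC genes, Sox4 rose by 0.62 after TBI and Sox12 did not pass (-0.08). The 3 other stathmins all fell, Stmn1 by 0.31, Stmn2 by 0.39 and Stmn3 by 0.43 on the log2 scale, beside 0.13 for Stmn4.

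Of 16 other transcription factors linked to axon regeneration, 9 were higher and 3 lower in vehicle than in sham (median 0.18). The shares of all genes were 26.6% higher and 54.3% in either direction. Cebpd rose by 1.97, Stat3 by 0.91 and Myc by 0.79. No drug moved any of the 16 relative to vehicle, where 9.89%, 0.116% and 17.5% of all genes passed with PLX3397, Anakinra and both. The growth cone list split as well, with 8 of 18 higher and 6 lower (median 0.06). The genes with the largest rises were the adhesion receptor Cd44 (3.16), the actin regulator Arpc1b (2.58) and the tubulin Tubb6 (1.88), none of them restricted to neurons. Of the list, 3 genes were lower with the combination than with vehicle, as were 9.6% of all genes tested. Arpc1b (-0.72) and Cd44 (-0.40) were among these 3.

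Other genes reported as induced by axotomy gave 10 higher and 8 lower of 22 tested in vehicle against sham (median 0.21). In that comparison 26.6% of all genes passed as higher and 54.3% in either direction. The largest rises were in Timp1 (4.61), the monocyte chemoattractant Ccl2 (3.53) and Anxa2 (2.40), again genes that many cell types make. With PLX3397+Anakinra 2 of the 22 were lower than with vehicle and 1 was higher, where 9.6% of all genes passed as lower. Ccl2 was among the lower ones (-0.83, adjusted p = 0.00136). The neuropeptides Npy and Vip, which injured sensory neurons raise, were lower here by -0.47 and -0.54, and both are made by cortical interneurons in the intact brain. These 2 were chosen after their values had been seen. Of growth inhibitors and their receptors, 3 of 9 were higher and 6 lower: Socs3, an inhibitor of STAT3 signalling, rose by 2.21, and the Nogo receptor parts Rtn4r and Lingo1 fell by 0.90 and 0.86. With PLX3397+Anakinra Rtn4r and Lingo1 were higher than with vehicle, by 0.33 and 0.30, and 1 of the 9 was lower.

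The receptors of galanin stayed low. Galr1 rose from 0.825 to 1.64 TPM (0.50, adjusted p = 0.0041), whereas Galr2 (0.815 and 0.795 TPM) and Galr3 (0.429 and 0.848 TPM) did not pass. None of the 3 passed in any comparison with vehicle. Of 5 relatives of Ecel1 among the zinc proteases, Ece1, Ece2, Mme, Mmel1 and Phex, none passed after TBI, with log2 differences between -0.11 and 0.18.

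**Figure D4:**
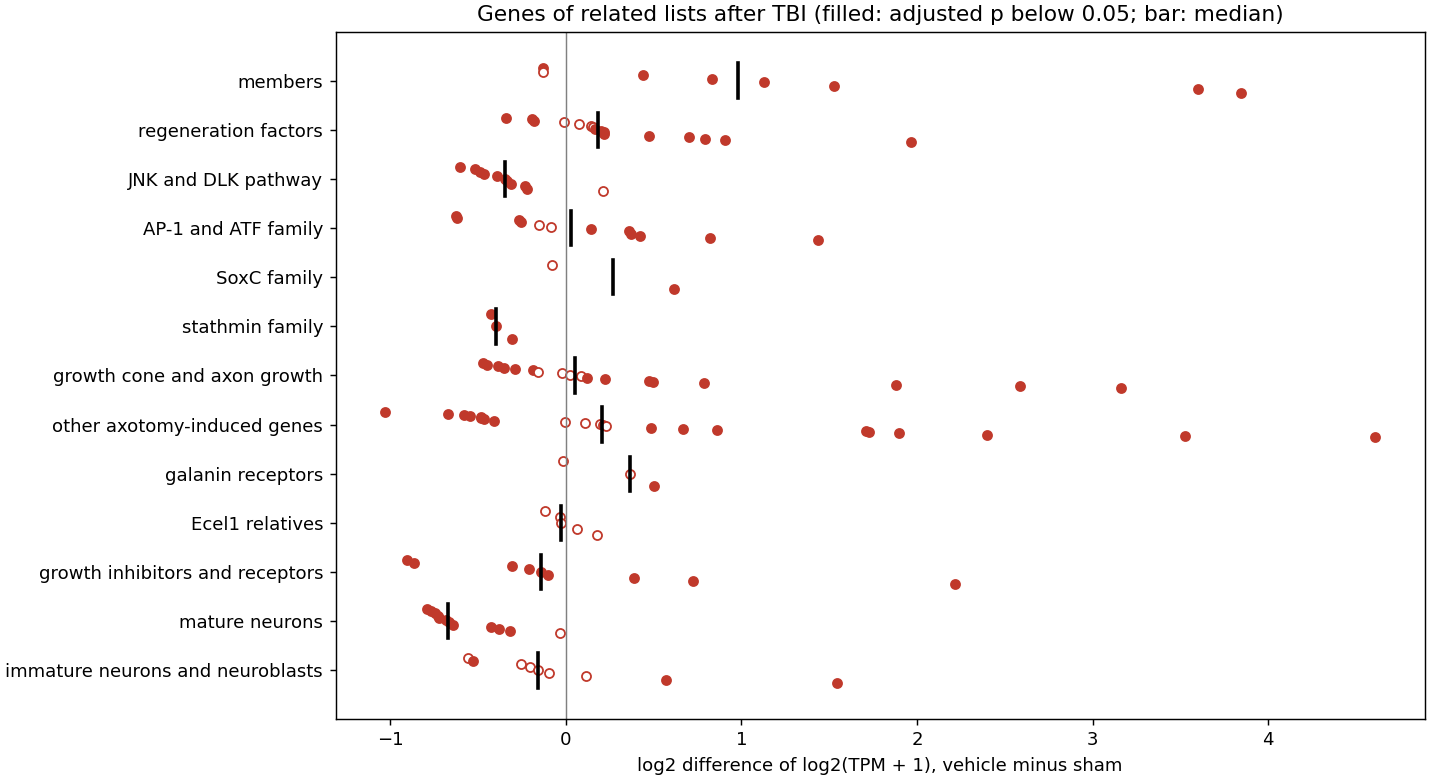
Log2 difference of log2(TPM + 1), vehicle minus sham (horizontal axis), for each gene (points) of the members and of related lists (vertical axis); filled points passed an adjusted p of 0.05 and bars are medians. The members' median was 0.98, that of the JNK and DLK list -0.35 and that of mature neuron markers -0.67.

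Marker genes of cell types moved with these groups. For the marker counts, 54.3% of all genes passed between vehicle and sham. The share was 17.5% between PLX3397+Anakinra and vehicle. Of 12 mature neuron markers, 11 were lower in vehicle than in sham and none higher, and their summed level fell from between 9341 and 9844 TPM in sham mice to between 5685 and 6778 TPM in vehicle mice. It was 7001 to 7464 TPM with PLX3397+Anakinra, where 9 of 12 were higher than in vehicle. Gap43 and Stmn4, both neuronal, differed by -0.13 each, beside a median of -0.67 for these markers. The part of this fall in the members' values was not tested.

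Monocyte and macrophage markers moved the other way. All 8 rose after TBI, from a summed 54.5 to 61.0 TPM in sham to 3653 to 8250 TPM in vehicle mice. The sum was 2545 to 4680 TPM with PLX3397, 3575 to 5705 TPM with Anakinra and 1347 to 2000 TPM with both. All 8 were lower than vehicle with PLX3397+Anakinra and with PLX3397, and none passed with Anakinra. The microglial list behaved differently, with a mean summed level of 1321 TPM in vehicle, 576 with PLX3397, 1297 with Anakinra and 525 TPM with both, so that the groups with and without Anakinra hardly differed. The order of Atf3 among the injured groups (vehicle, Anakinra, PLX3397, both) was that of the macrophage sum. It was also the reverse of the order of the mature neuron sum, with means of 6127, 6269, 6901 and 7198 TPM. Sprr1a and Gal did not follow it, with means of 13.7 and 12.3 TPM with PLX3397 beside 13.5 and 12.2 TPM with vehicle. The part of macrophages, microglia and neurons in the Atf3, Sprr1a and Gal values was not tested.

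**Figure D5:**
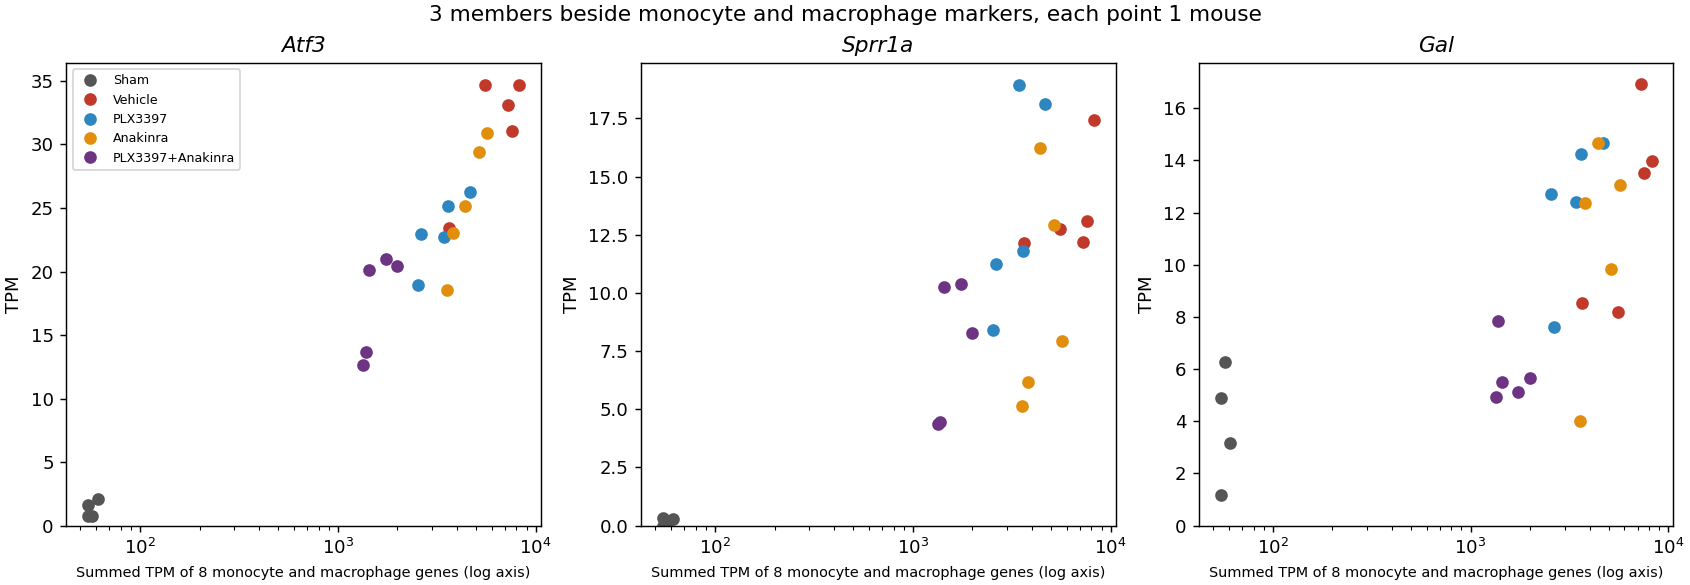
TPM of Atf3, Sprr1a and Gal (vertical axes) against the summed TPM of 8 monocyte and macrophage markers (horizontal log axes), each point 1 mouse, coloured by group. PLX3397+Anakinra mice sit at sums of 1347 to 2000 TPM, below every other injured mouse, and sham mice at 54.5 to 61.0 TPM.

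Markers of cycling cells and of oligodendrocyte progenitors also rose after TBI and were lower with the combination. All 4 cycling markers did both, with summed levels of 3.31 to 3.66 TPM in sham, 32.8 to 65.1 TPM in vehicle and 22.2 to 38.5 TPM with PLX3397+Anakinra. All 3 progenitor markers did so too, at 46.5 to 48.5, 57.9 to 81.7 and 47.4 to 53.1 TPM. With PLX3397 alone, 2 of 4 cycling markers and 2 of 3 progenitor markers were lower than with vehicle. Their part in the Atf3, Sprr1a and Gal values was not tested. All 7 astrocyte markers rose after TBI and 1 was lower with PLX3397+Anakinra than with vehicle. Of 9 markers of immature neurons, 2 rose and 1 fell, with Dcx, their defining gene, at 14.1 TPM in sham and 12.7 TPM in vehicle (adjusted p = 0.26). Their summed level was 83.3 to 90.8 TPM in sham and 109 to 123 TPM in vehicle mice, with Cd24a going from a mean of 16.7 to 51.2 TPM, whereas the median log2 difference of the list was -0.16. All 5 fibroblast and meningeal markers rose, and 4 of 5 were higher with PLX3397+Anakinra than with vehicle. None of the 5 red blood cell genes passed after TBI, and all 5 were lower than vehicle with PLX3397 and with the combination. Striatal markers did not pass in either comparison, and 4 of 7 thalamic markers were lower in vehicle than in sham.

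Within groups, mice with more of one member did not clearly have more of another. For the 28 pairs of members, deviations from the group means were correlated over the 20 injured mice and tested by permutation within groups. No pair passed after adjustment over the 28, and 4 had an unadjusted permutation p below 0.05. The median r was 0.17, the range -0.39 to 0.69, and 20 pairs were positive. The closest pair was Atf3 and Sprr1a, with r = 0.69 (permutation p = 0.00506, adjusted 0.114) and rho = 0.60 (permutation p = 0.0224, adjusted 0.313), and r = 0.57 without the 2 mice farthest from the median of Atf3. Gap43 and Jun formed the lowest pair, at r = -0.39 (permutation p = 0.164).

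The same deviations were set against the mean of 9 marker lists, 72 pairs in all, a step added after the values had been seen. Of these, 3 passed after adjustment of Pearson's r, all for Atf3, and 13 had an unadjusted permutation p below 0.05. Atf3 correlated with monocyte and macrophage markers (r = 0.73, permutation p = 0.00021, adjusted 0.00936, and 0.64 without the 2 farthest mice) and inversely with mature neuron markers (r = -0.71, permutation p = 0.00026, adjusted 0.00936, and -0.60). It also correlated with fibroblast markers (r = 0.60, permutation p = 0.00083, adjusted 0.0199, and 0.67). Spearman's rho for these was 0.63, -0.60 and 0.54, with adjusted permutation p of 0.0936, 0.0936 and 0.135. Sprr1a had the same signs with smaller values (r = 0.50 and -0.53 with macrophage and neuron markers, adjusted permutation p = 0.136 for both). Gap43 went with the neuron markers (r = 0.64, rho = 0.65, adjusted permutation p = 0.136 and 0.189).

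The genes whose deviations were most like those of each member, were sought among 12515 genes averaging 5 TPM or more, over the same 20 mice. For Atf3 they were Colec12 (r = 0.86), the macrophage gene Gpnmb (0.84) and Hyal2 (0.84). For Jun they were Midn (0.91), Ltbp3 (0.90) and Ppard (0.89), and for Gap43 Unc13c (0.89), Prkar1a (0.88) and Ctnna2 (0.87), of which Unc13c and Ctnna2 are known for roles at synapses. Sox11 was most like Nus1 (0.82), Cep97 (0.81) and Cxxc4 (0.80), and Sprr1a like Plscr1, Cdpf1 and Timm10b (0.79 to 0.77). For Gal (Paqr6, Map2k3 and Gm17750), Ecel1 (Gart, Ptpn11 and Ilkap) and Stmn4 (Scrg1, Flt3l and Lxn) r was at most 0.79. With this many genes and 20 mice, values of this height are a description only.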

How the data were processed

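RNA from injured or sham-operated brain was sequenced for 24 mice, with polyA selection and paired-end reads. The authors processed the reads in CLC Genomics Workbench against mm10 (GRCm38 per the labels) and deposited expression as TPM. Their methods add that CLC calls this unit CPM, so scaling by gene length could not be settled. The limma tests compared levels only within a gene. Summed levels of marker lists add genes as listed, so without scaling by length longer genes would weigh more in them. The same doubt holds where the level of one gene is set beside that of another. The deposited tables of a filtered gene subset and of rounded values were not used; the first also holds the authors' own test results.

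Groups follow the treatment that the labels give. limma 3.58.1 (R 4.3.3) was fitted to log2(TPM + 1) for the 17267 genes averaging 0.5 TPM or more, with 1 mean per group, all 24 libraries and a variance trend. A call is a Benjamini-Hochberg adjusted p below 0.05 over these genes, and adjusted p-values are limma's unless a permutation test is named. Folds on this scale understate changes of low genes. Main effects average over the other drug. Correlations used 100000 shuffles within groups. The fit was tested on simulated data. Depth is unknown, so precision rests on the spread between mice, and nothing shows whether mice shared a litter.

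The members and lists were chosen with earlier results of these data known. Of each list, counts and the median are given, and by name at most the 3 genes with the largest change after TBI and 2 with the largest among TBI groups, besides family relatives and defining markers. Npy, Vip, Dusp1 and Dusp10 were named outside this rule, after their values had been seen. For likeness, the 3 genes with the highest r are named. Alternatives were another pseudocount (0.1), other filters, median-ratio rescaling, a robust fit, only the compared groups, the study's criteria, exact permutation and leaving out each mouse. Shares of all genes by exact permutation were added after the data had been seen.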

Additional observations from a re-analysis of the deposited data

Results flagged for a closer look

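Of 40 sets of mice (8 members in 5 groups), 2 held a mouse far from the others, and chance alone gives about 2 such sets, at 1 in 20. Sprr1a in vehicle mouse J19B was at 17.4 TPM, above the other vehicle mice at 12.2 to 13.1 TPM. Without this mouse the difference of PLX3397+Anakinra from vehicle was -0.74 and no longer passed (adjusted p = 0.0773). Gal in PLX3397+Anakinra mouse J10 was at 7.84 TPM, above the other mice of its group at 4.92 to 5.66 TPM and still below the lowest vehicle mouse at 8.18 TPM.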

How the results depend on the processing

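For the members that passed a test, 32 values were recomputed under the alternatives, 1020 recomputations in all. Of these, 977 kept their direction and their side of the threshold, 43 kept the direction but no longer passed, and none reversed. The values lost most often were combination calls. Atf3 against Anakinra was lost in 9 of 32 recomputations, Gal against vehicle in 7 and Sprr1a against vehicle in 6. The study's criteria (unadjusted p below 0.05, ratio above 2 and difference above 4 TPM) left 4 members called for vehicle, 3 for Anakinra and 2 for PLX3397+Anakinra against sham, and 1, 1 and 0 for the combination against vehicle, PLX3397 and Anakinra. Exact permutation with unadjusted p called 3, 1 and 6 members for PLX3397, Anakinra and both against vehicle, 3 and 3 for both against PLX3397 and Anakinra, and 2 for PLX3397 against Anakinra, where 18.2%, 11.3%, 24.7%, 5.32%, 25.8% and 17.9% of all genes passed. Fitting only the compared groups called 1 for PLX3397 against vehicle. Without the filter, 1 was called for the combination against vehicle and 0 against Anakinra, also 0 with a pseudocount of 0.1. Rescaling left 1 for the PLX3397 main effect. Leaving out single mice gave 0 to 1 for PLX3397 against vehicle (1, Atf3, without J17B), 1 to 4 for the combination against vehicle (1 without J19B or J17), 0 to 2 for it against Anakinra, 0 to 1 for PLX3397 against Anakinra, and 0 to 2 for correlated pairs (2 without Anakinra mouse J05, 1 without J21). The cause was not tested. No paired analysis was possible because each mouse gave 1 library and no label pairs mice between groups. Unknown depth limits the low members, Sprr1a and Atf3 in sham mice above all.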
